A study of Mus musculus with 6 samples.

Results

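The ERK feedback and output genes are 10 genes that the Ras-ERK pathway switches on, and they were taken from the deposited table by their gene symbols: Dusp4, Dusp5, Dusp6, Spry1, Spry2, Spry4, Spred1, Etv4, Etv5 and Phlda1. All 10 were found, among 25067 rows. They were measured by RNA sequencing in 6 libraries of C57BL/6 mouse colon organoids, 3 grown with vehicle (ethanol) and 3 with 4-hydroxytamoxifen (4-OHT) for 3 days after passage. Organoids of both groups came from mice labelled 8 weeks old and carried the same genotype, floxed Prkci and Prkcz, the genes of the atypical protein kinases C (aPKC), together with Villin-CreERT2, a Cre recombinase that the gut-epithelial Villin promoter drives and that 4-OHT activates. The sample labels name the vehicle libraries wild type and the 4-OHT libraries a double knockout. The medium of all 6 contained EGF, WNT3A, Noggin and R-spondin 1. There was no 4-OHT library that lacked Cre or the floxed alleles, so the loss of aPKC, Cre activity and 4-OHT itself cannot be told apart. The labels do not say whether the libraries of a group came from separate mice or cultures, so the p-values measure the spread between these libraries, which may be technical.

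Growth factor receptors such as the EGF receptor pass their signal through Ras, Raf, MEK and ERK to the nucleus. Active ERK induces its own brakes: the dual-specificity phosphatases (Dusp), which remove phosphate from ERK, and the Sprouty (Spry) and Spred proteins, which act on the pathway at or above Raf. It also raises the Ets transcription factors Etv4 and Etv5, and transcripts of this kind are widely used as a readout of ERK output. In the colon, EGF receptor signalling supports the growth of the crypt epithelium.

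The targeted genes were checked first. Prkcz had normalized counts (reads divided by a size factor for each library) of 880, 904 and 954 in vehicle replicates 1, 2 and 3 and of 287, 265 and 290 in 4-OHT replicates 1, 2 and 3, a fall to 0.309 of the vehicle level. Prkci had 3603, 3526 and 3430, then 2869, 3105 and 3089, a fall to 0.858 (limma adjusted p = 3.2e-12 and 0.00081). Both went in the direction of the labels, but most Prkci transcript remained, and the labels do not say which exons the deletion removes, so reads from the other exons check nothing.

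The libraries held between 15804709 and 26957612 reads, recovered from the normalized counts. A list of 6 epithelial markers (among them Epcam, Cdh1 and Krt8) summed to between 12908 and 13245 reads per 1000000 in vehicle and between 16765 and 17873 in 4-OHT libraries, and 6 colon markers (among them Cdx2 and Muc2) to between 791 and 971 over all libraries. The keratin genes Krt8 and Krt18 held the most reads of the 6 epithelial markers in each library, so the epithelial sum mainly follows them. Markers of other cells were low but uneven, and each listed marker had reads in some library. A list of 8 Paneth cell and ileal genes had between 10.6 and 18.1 reads per 1000000 in the vehicle libraries and 4-OHT replicate 1, against 62.4 and 51.9 in 4-OHT replicates 2 and 3. The 3 immunoglobulin genes of plasma cells had 1, 204 and 62 reads in 4-OHT replicates 1, 2 and 3, where the vehicle libraries were at 0 (which allows up to 3 reads each). The 6 fibroblast markers summed to between 6 and 22 reads, except for 171 in 4-OHT replicate 3, and the 6 smooth muscle markers to between 3 and 14, except for 63 and 144 in 4-OHT replicates 2 and 3. The 6 leukocyte markers had between 32 and 52 reads, except for 102 and 92 in 4-OHT replicates 2 and 3, and the 5 vessel markers between 33 and 80 throughout. The part of such cells in the changes below was not tested, and values without both 4-OHT replicates 2 and 3 are given for some of the genes. In bulk RNA a change in RNA per cell and a change in the share of cells that express a gene cannot be told apart.

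In 4-OHT organoids, 7 of the 10 genes rose and 1, Etv5, fell, while Spry4 and Spred1 did not pass the test. Normalized counts, with 1 added, were tested on the log2 scale by limma-trend, and p-values were adjusted by Benjamini-Hochberg over the 13210 genes whose mean reached 10, with a threshold of 0.05. All 10 genes passed this filter on low values. Among all tested genes, 22.7% were called higher and 21.0% lower, so a broad change of the transcriptome is the background of the count. Every 4-OHT library lay above every vehicle library for 9 of the 10 genes, against 26.8% of tested genes, and every 4-OHT library lay below every vehicle library for Etv5, against 25.3%. The median log2 fold change of the 10 genes was 0.38, beside -0.0054 over all tested genes, and the median of its size was 0.43, beside 0.21. Because the 10 genes were chosen with earlier results of these data known, these counts and medians are descriptions. The changes were moderate, with 2 of the 10 (Dusp5 and Etv5) past 0.5 in size on the log2 scale, a size that 18.1% of tested genes passed. When 4-OHT replicates 2 and 3 were both left out, every one of the 10 genes kept its direction, 6 of the 7 rises passed the test, Spry1 being the exception, and Etv5 was still called lower.

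**Figure D1:**
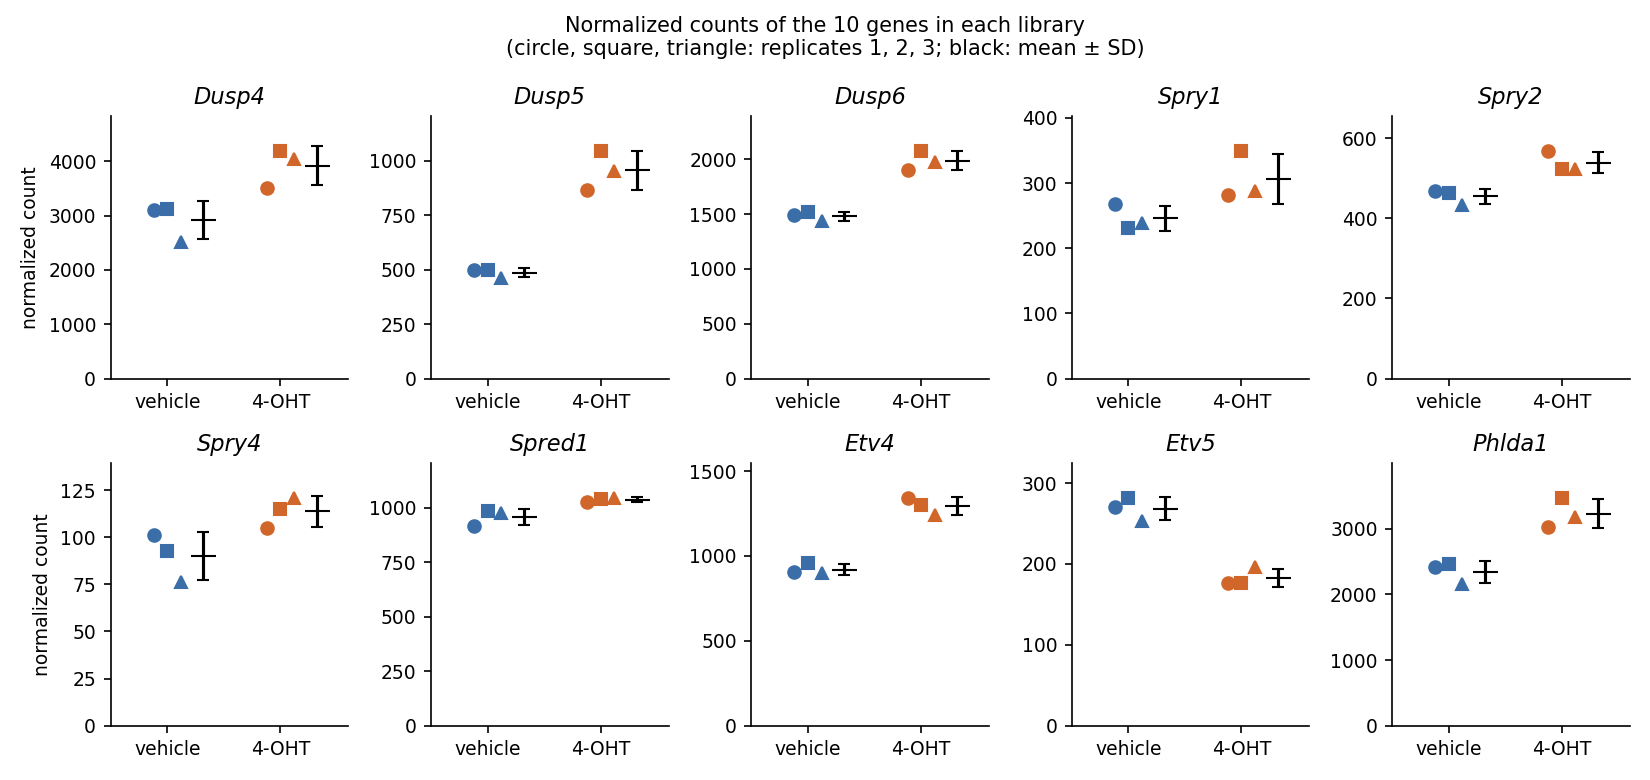
Normalized count (y axis, from 0) of each of the 10 genes in the 3 vehicle (blue) and 3 4-OHT (orange) libraries; the marker shape gives the replicate number and the black bar the mean with the SD. The orange points sit above the blue ones in 9 panels, most clearly for Dusp5, and below them for Etv5.

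The promoters of 3 of the genes are shown because they carry the motifs found, or belong to the gene that moved the other way. RefSeq windows from 250 bases before to 50 bases after the annotated start were used (build GRCm38.p6, which is not the GRCm39 build that the submitters name for the deposited values). Those of Dusp5, Dusp6, Etv5, Spred1, Spry1 and Spry2 were searched on both strands for 4 motifs of factors that act downstream of ERK. The rest of the 10 genes were not searched. These were CCGGAA, bound by Ets factors, TGACTCA, bound by AP-1, TGACGTCA, bound by CREB and related factors, and the CArG box, bound by SRF. The windows are given 5′ to 3′ on the strand of the gene, in lower case with the motif matches in capitals. They lie at chr19:53528895-53529194 on the plus strand for Dusp5, at chr14:105896770-105897069 on the minus strand for Spry2 and at chr16:22439521-22439820 on the minus strand for Etv5.
Dusp5: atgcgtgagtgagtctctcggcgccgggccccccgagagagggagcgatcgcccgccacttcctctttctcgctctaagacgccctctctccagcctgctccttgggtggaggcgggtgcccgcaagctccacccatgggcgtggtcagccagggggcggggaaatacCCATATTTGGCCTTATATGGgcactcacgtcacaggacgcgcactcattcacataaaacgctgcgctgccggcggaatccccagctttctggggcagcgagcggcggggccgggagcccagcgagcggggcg
Spry2: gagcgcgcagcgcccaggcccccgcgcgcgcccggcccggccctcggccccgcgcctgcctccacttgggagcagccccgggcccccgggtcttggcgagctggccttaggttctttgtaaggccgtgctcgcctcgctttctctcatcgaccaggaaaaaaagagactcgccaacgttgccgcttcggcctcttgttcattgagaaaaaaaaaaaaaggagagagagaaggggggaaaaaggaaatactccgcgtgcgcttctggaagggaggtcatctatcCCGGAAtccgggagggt
Etv5: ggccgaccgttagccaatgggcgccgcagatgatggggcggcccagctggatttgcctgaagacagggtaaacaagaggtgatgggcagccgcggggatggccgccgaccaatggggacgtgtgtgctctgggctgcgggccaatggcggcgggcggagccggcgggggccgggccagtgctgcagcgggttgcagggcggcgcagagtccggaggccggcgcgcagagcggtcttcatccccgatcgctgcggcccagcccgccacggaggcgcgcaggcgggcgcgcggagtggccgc

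The Dusp5 window held 2 CArG boxes next to each other, from 82 to 73 and from 72 to 63 bases before the start, and 1.63% of the 32851 RefSeq windows of this length held at least 1. The Spry2 window held 1 CCGGAA, 34 to 39 bases into the transcript, and 14.9% of all windows held it. TGACTCA (5.2% of all windows) and TGACGTCA (1.79%) were in none of the 7 windows of these 6 genes, and the windows of Dusp6, Etv5 (which has a pair of annotated starts), Spred1 and Spry1 held none of the 4 motifs. Other forms of these sites, among them other Ets sites, were not searched, so a window without a match may still hold such a site. A match is a string of letters, and binding was not measured.

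Among the phosphatases, Dusp5 changed most. Dusp5, an inducible nuclear phosphatase that is specific for ERK, had normalized counts of 496, 497 and 462 in vehicle replicates 1, 2 and 3 and of 866, 1046 and 951 in 4-OHT replicates 1, 2 and 3. The groups lay far apart, with the lowest 4-OHT value well above the highest vehicle value. The mean rose from 485 ± 19.6 to 954 ± 90.1 (SD, n = 3 each), a fold of 1.96 (95% interval 1.76 to 2.19; log2 fold change 0.97, SE 0.075, limma adjusted p = 4.3e-09), and 97.7% of tested genes had a lower log2 fold change.

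Dusp6, the cytoplasmic phosphatase that is specific for ERK and a common marker of its activity, had 1487, 1519 and 1437 normalized counts in vehicle replicates 1, 2 and 3. In 4-OHT replicates 1, 2 and 3 it had 1905, 2079 and 1972, all above the vehicle libraries. The rise was 1.34-fold (95% interval 1.24 to 1.45; log2 fold change 0.42, SE 0.053, limma adjusted p = 2.1e-06). Dusp4, a nuclear phosphatase with ERK among its substrates, was the most abundant phosphatase gene of the set per kilobase of exon. It had normalized counts of 3105, 3126 and 2516 in vehicle replicates 1, 2 and 3 and of 3514, 4200 and 4045 in 4-OHT replicates 1, 2 and 3. Here vehicle replicate 3 was the lowest of its group and 4-OHT replicate 1 lay closest to the vehicle libraries. Dusp4 rose 1.35-fold (95% interval 1.21 to 1.5; log2 fold change 0.43, SE 0.073, limma adjusted p = 7.6e-05), and by 0.33 on the log2 scale without vehicle replicate 3. Without 4-OHT replicates 2 and 3 its log2 fold change was 0.28 (limma adjusted p = 0.031).

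The proportions of the 3 phosphatase transcripts were compared as ratios. The log2 ratio of Dusp6 to Dusp5 was 1.58, 1.61 and 1.63 in vehicle replicates 1, 2 and 3 and 1.14, 0.99 and 1.05 in 4-OHT replicates 1, 2 and 3, so that the groups did not overlap and the means differed by -0.55. The exact two-sided permutation test gave p = 0.1, the smallest that 3 libraries against 3 allow, and 0.3 after adjustment over the 6 ratios compared. The log2 ratio of Dusp6 to Dusp4 was -0.97 ± 0.14 in vehicle and -0.98 ± 0.083 in 4-OHT libraries (SD, n = 3 each), with overlapping groups (exact permutation p = 1.0, adjusted p = 1.0), and the sign of their difference (-0.0077) turned without vehicle replicate 3, 4-OHT replicate 2 or 4-OHT replicate 3.

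The Sprouty genes showed smaller differences. Sprouty proteins are induced by ERK and restrain the signal from growth factor receptors. Spry2 had 468, 463 and 432 normalized counts in vehicle replicates 1, 2 and 3 and 569, 522 and 524 in 4-OHT replicates 1, 2 and 3, with no overlap. It rose 1.18-fold (95% interval 1.06 to 1.32; log2 fold change 0.24, SE 0.077, limma adjusted p = 0.014). The call was lost without vehicle replicate 3 (adjusted p = 0.057) and without 4-OHT replicate 1 (adjusted p = 0.06, limma for both).

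Spry1 had 268, 231 and 238 normalized counts in vehicle replicates 1, 2 and 3 and 281, 350 and 288 in 4-OHT replicates 1, 2 and 3. Vehicle replicate 1 came close to the 4-OHT group, and 4-OHT replicate 2 stood above the other two. The rise was 1.24-fold (95% interval 1.06 to 1.45; log2 fold change 0.31, SE 0.11, limma adjusted p = 0.024). Left out in turn, 3 libraries ended the call, namely vehicle replicate 2 (adjusted p = 0.094), vehicle replicate 3 (0.066) and 4-OHT replicate 2 (0.14, log2 fold change 0.21, limma for all 3). Without 4-OHT replicates 2 and 3 the log2 fold change was 0.20 (limma adjusted p = 0.33), less than the value above by over 1.5 times.

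Spry4, the least abundant of the 10 per kilobase of exon, had 101, 92.9 and 76.3 normalized counts in vehicle replicates 1, 2 and 3 and 105, 115 and 121 in 4-OHT replicates 1, 2 and 3. The groups did not overlap, but vehicle replicate 1 and 4-OHT replicate 1 lay close together. The log2 fold change of 0.34 (95% interval 0.014 to 0.67, limma adjusted p = 0.087) did not pass, and at 63 to 131 reads per library it had the widest interval of the 10. The proportions of the Sprouty transcripts overlapped between the groups. The log2 ratio of Spry2 to Spry1 was 0.89 ± 0.10 in vehicle and 0.82 ± 0.22 in 4-OHT libraries, and that of Spry2 to Spry4 was 2.33 ± 0.14 and 2.23 ± 0.17 (SD, n = 3 each, exact permutation p = 0.9 and 0.5, adjusted p = 1.0 and 0.75), and without 4-OHT replicate 2 the first difference turned from -0.069 to 0.052.

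Spred1 brings the Ras inhibitor neurofibromin to the membrane. It had 916, 983 and 976 normalized counts in vehicle replicates 1, 2 and 3 and 1027, 1038 and 1046 in 4-OHT replicates 1, 2 and 3. All 4-OHT values were above all vehicle values, by a narrow margin. The log2 fold change was 0.11 (95% interval -0.0081 to 0.24, limma adjusted p = 0.12), so a rise of more than 1.18-fold lies outside the interval. It did not pass in any of the 16 alternatives run. The log2 ratio of Spred1 to Spry2 was 1.07 ± 0.10 in vehicle and 0.95 ± 0.083 in 4-OHT libraries (SD, n = 3 each, exact permutation p = 0.3, adjusted p = 0.6).

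The Ets genes moved in opposite directions. Etv4 and Etv5 encode closely related factors of the PEA3 group, and both are known as ERK-induced genes. Etv4 had 904, 958 and 897 normalized counts in vehicle replicates 1, 2 and 3 and 1344, 1302 and 1241 in 4-OHT replicates 1, 2 and 3. Etv4 rose 1.41-fold (95% interval 1.29 to 1.53; log2 fold change 0.49, SE 0.059, limma adjusted p = 1.1e-06) without overlap of the groups. Etv5 had 270, 282 and 253 in vehicle replicates 1, 2 and 3 and 176, 176 and 196 in 4-OHT replicates 1, 2 and 3. Etv5 fell to 0.681 of the vehicle level (95% interval 0.584 to 0.795; log2 fold change -0.55, SE 0.11, limma adjusted p = 0.00028), again without overlap, and kept this call in all 16 alternatives (log2 fold change -0.61 to -0.50).

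The log2 ratio of Etv5 to Etv4 was -1.74, -1.76 and -1.82 in vehicle replicates 1, 2 and 3 and -2.93, -2.88 and -2.66 in 4-OHT replicates 1, 2 and 3. It thus dropped by 1.05 on the log2 scale, the largest shift of the 6 ratios, and the groups did not overlap (exact permutation p = 0.1, the smallest possible, adjusted p = 0.3).

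Phlda1 encodes a pleckstrin homology-like domain protein whose transcript follows ERK activity in many epithelial cells. It had 2419, 2463 and 2159 normalized counts in vehicle replicates 1, 2 and 3 and 3032, 3477 and 3187 in 4-OHT replicates 1, 2 and 3. The groups did not overlap, and 4-OHT replicate 1 was the lowest of its group, as it was for Dusp4, Dusp5 and Dusp6. Phlda1 rose 1.38-fold (95% interval 1.27 to 1.5; log2 fold change 0.46, SE 0.058, limma adjusted p = 2.4e-06).

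**Figure D2:**
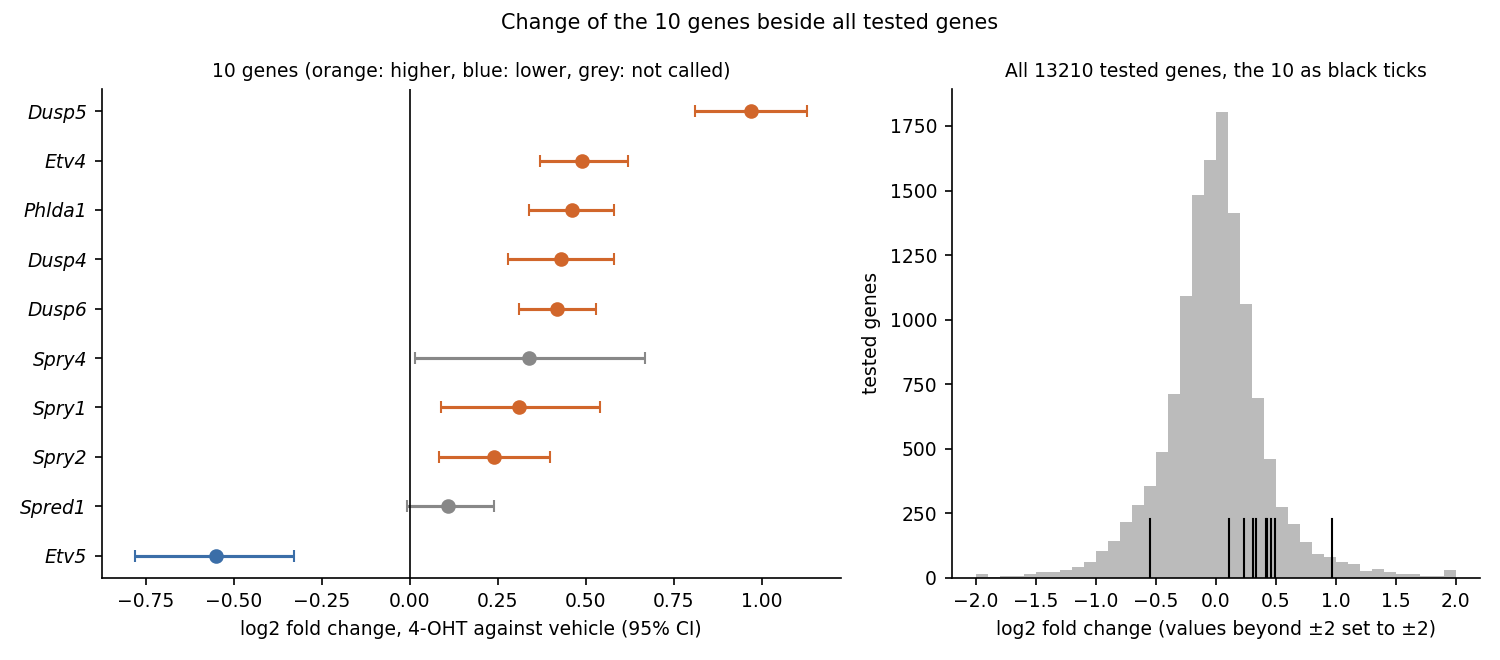
Left, log2 fold change (x axis, 4-OHT against vehicle) of each gene with its 95% interval from limma, in orange where called higher, blue where called lower and grey where not called. Right, the distribution of the log2 fold changes of all 13210 tested genes with the 10 genes as black ticks; 8 of the 10 ticks lie between 0.11 and 0.49, with Dusp5 at 0.97 and Etv5 at -0.55.

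Each 4-OHT library showed the rise. The median of their differences from the vehicle mean was 0.30, 0.50 and 0.42 on the log2 scale in 4-OHT replicates 1, 2 and 3. 4-OHT replicate 1 was the lowest of the 3 for most of the genes that rose, but the highest for Spry2 (0.32 above the vehicle mean, against 0.20 and 0.20) and Etv4 (0.55, against 0.50 and 0.43). In a principal component analysis of all tested genes the same library stood apart from the other 4-OHT libraries on the second component (-26.8, against 10.5 and 10.9), which held 14.1% of the variance. On the first component (58.2%) it lay at 18.3, nearer the vehicle libraries (-26.3 to -24) than 4-OHT replicates 2 and 3 (29.4 and 28.9). Those 2 replicates held the most reads of the Paneth cell and ileal, plasma cell and smooth muscle markers, whose part was not tested. Without 4-OHT replicate 1, the log2 fold changes of the 10 genes kept their direction, and 6 of the 7 rises and the fall of Etv5 passed.

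Levels were compared between genes only after division by the length of their exons (kilobases, GENCODE vM21). On this scale Dusp4 and Phlda1 were the most abundant in vehicle libraries, with 1064 ± 126 and 1064 ± 74.6 normalized counts per kilobase (SD, n = 3 each), and their ranges overlapped. Dusp6 followed with 473 ± 13.2, Etv4 with 296 ± 10.8, Spry2 with 218 ± 9.37, Dusp5 with 196 ± 7.94, Spred1 with 141 ± 5.41, Spry1 with 84.6 ± 6.65, Etv5 with 65.4 ± 3.58 and Spry4 with 18.9 ± 2.63 per kilobase (SD, n = 3 each). Apart from the first 2, neighbours in this order did not overlap between libraries. In 4-OHT libraries Dusp5, at 386 ± 36.4, stood above Spry2 (258 ± 12.8) and overlapped Etv4 (417 ± 16.7), while Etv5 was at 44.5 ± 2.80 and Spry4 at 23.9 ± 1.63 normalized counts per kilobase (SD, n = 3 each). Dusp4 and Phlda1 overlapped again, and the remaining genes kept their order. The level per kilobase depends on which exons are annotated.

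Other genes of the pathway were followed through 6 lists with 62 genes, of which 61 were in the table and 58 passed the filter on low values. Of the 58, 25 were called higher and 5 lower, beside 22.7% and 21.0% of all tested genes, and their median log2 fold change was 0.11. The lists were drawn up with earlier results of these data known, so their counts are descriptions. Rasgrp1 had 0 reads in each library, Dusp2 at most 2 and Etv1 at most 11.

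**Figure D3:**
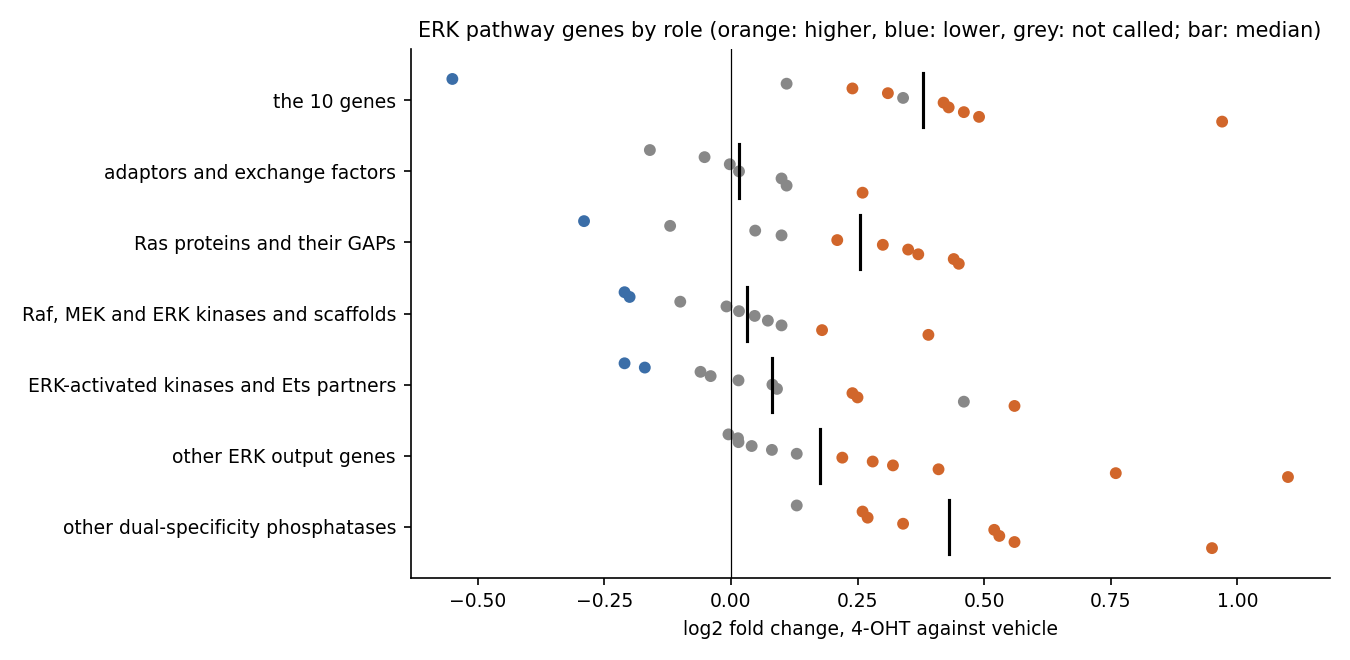
Log2 fold change (x axis, 4-OHT against vehicle) of each tested gene of the 10 and of the 6 pathway lists, coloured orange where called higher, blue where called lower and grey where not called, with the list median as a black bar. The medians of the 10 genes (0.38) and of the other phosphatases (0.43) lie furthest to the right, while the kinase list is centred near 0.

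Upstream of Raf, most of the calls were in the list of Ras proteins and their regulators. Of 7 tested adaptors and exchange factors, only Grb2 was called, beside 22.7% of all tested genes called higher and 21.0% lower. Grb2, which links receptors to Ras activation, rose (log2 fold change 0.26, SE 0.051, limma adjusted p = 0.00033). The Ras genes Hras and Nras rose by 0.45 and 0.44 on the log2 scale (limma adjusted p = 4.2e-06 and 1e-06). Of the 10 genes in the Ras list, 6 rose and 1 fell, beside the same 22.7% and 21.0% of all tested genes. Genes of Ras GTPase-activating proteins, which switch Ras off, went both ways: Nf1, which encodes neurofibromin, fell by 0.29 (limma adjusted p = 0.0038), while Rasa1 and Rasa2, named after their values were seen, rose by 0.35 and 0.21 (limma adjusted p = 0.0001 and 0.0065).

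In the kinase list, 2 of 10 genes rose and 2 fell, near the shares of all tested genes (22.7% higher and 21.0% lower). Mapk3, which encodes ERK1, rose from 5644 ± 100 to 7388 ± 517 normalized counts (SD, n = 3 each, log2 fold change 0.39, limma adjusted p = 2.3e-06), and its libraries did not overlap between the groups. Of the MEK genes, Map2k2 rose by 0.18 on the log2 scale (limma adjusted p = 0.0079), a call lost with quantile normalization (0.12, adjusted p = 0.059) and without 4-OHT replicates 2 and 3 (0.089, adjusted p = 0.33). Map2k1 was at -0.0087 (95% interval -0.12 to 0.10), a sign that turned without vehicle replicate 1, vehicle replicate 2 or 4-OHT replicate 1. The scaffold gene Ksr1 (-0.20, limma adjusted p = 0.048) lay just past the threshold and lost its call in 11 of the 16 alternatives, and Braf (-0.10, limma adjusted p = 0.29) did not pass. The number of pathway genes called lower went from 5 to 3 when vehicle replicate 1, vehicle replicate 3 or 4-OHT replicate 2 was left out.

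Of 11 tested kinases and transcription factors that ERK acts on, 3 rose and 2 fell, also near the shares of all tested genes (22.7% and 21.0%). Elk3, an Ets partner of SRF, rose by 0.56 on the log2 scale (SE 0.056, limma adjusted p = 1.1e-07), Srf itself by 0.25 (limma adjusted p = 0.0038) and the kinase gene Mknk2 by 0.24 (limma adjusted p = 0.00012). Cic, which encodes a repressor of Etv4 and Etv5 that ERK inactivates, fell by 0.21 (limma adjusted p = 0.0012), and Rps6ka3, a kinase gene downstream of ERK, fell by 0.17 (limma adjusted p = 0.0086).

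Of 12 tested ERK output genes outside the 10, 6 rose, beside 22.7% of all tested genes. The lowest log2 fold change of the 12 was -0.0048. Lif, a cytokine of the interleukin-6 family, had 588, 627 and 605 normalized counts in vehicle replicates 1, 2 and 3 and 1351, 1240 and 1303 in 4-OHT replicates 1, 2 and 3, the largest change of the 6 lists (log2 fold change 1.10, SE 0.062, limma adjusted p = 6e-11). Spred3, a relative of Spred1, rose by 0.76 on the log2 scale (248 ± 14.8 to 419 ± 17 normalized counts, SD, n = 3 each, limma adjusted p = 1.3e-06). Plaur, the urokinase receptor, rose by 0.41 (limma adjusted p = 1.4e-05). Epha4 rose by 0.32, Epha2 by 0.28 and Ccnd1, which encodes cyclin D1, by 0.22 (limma adjusted p = 0.00052, 4.4e-05 and 0.0026). The Ccnd1 call was lost with quantile normalization (0.13, limma adjusted p = 0.066). Outside the rule for named genes, and picked after their values were seen, the Spred1 relative Spred2 (1877 ± 97.6 and 1895 ± 52.6 normalized counts), the early-response genes Egr1 (1541 ± 98.2 and 1583 ± 13.5 normalized counts) and Fosl1 (176 ± 6.05 and 192 ± 15.2) and the growth regulator Myc (4207 ± 77.1 and 4452 ± 140, SD, n = 3 each) were not called.

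Among the pathway lists, the other dual-specificity phosphatases had the highest share of calls. Of 8 tested genes, 7 were higher (median log2 fold change 0.43, lowest 0.13), beside 22.7% of all tested genes. This list too was drawn up with earlier results of these data known, so its share of calls is a description. Dusp10, which acts on JNK and p38 rather than on ERK, had 641, 633 and 552 normalized counts in vehicle replicates 1, 2 and 3 and 976, 1353 and 1221 in 4-OHT replicates 1, 2 and 3 (log2 fold change 0.95, SE 0.092, limma adjusted p = 8.3e-08). Without 4-OHT replicates 2 and 3 the log2 fold change of Dusp10 was 0.68. The cytoplasmic ERK phosphatase genes Dusp9 and Dusp7 rose by 0.56 and 0.53 (limma adjusted p = 1.5e-05 and 6.9e-05). Dusp1, an early-response phosphatase, had 1756 ± 358 and 1905 ± 267 (SD, n = 3 each), with a log2 fold change of 0.13 (95% interval -0.10 to 0.36, limma adjusted p = 0.35), and its direction turned without vehicle replicate 3 (-0.051).

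The genes outside the 10 whose log2 values followed Dusp6 most closely over the 6 libraries were Cyp3a13 (Pearson r = 0.9998), Anxa5 (0.9992) and Dynlt3 (0.9989), which differed between groups by 1.06, 0.68 and 0.47 on the log2 scale. After the group means were subtracted they were Rab6a (Pearson r = 0.9985), Cyp3a13 (0.9982) and Zdhhc20 (0.9965). These are descriptions over 6 points, which share the size factor of each library, and they are the highest values among all tested genes.

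**Figure D4:**
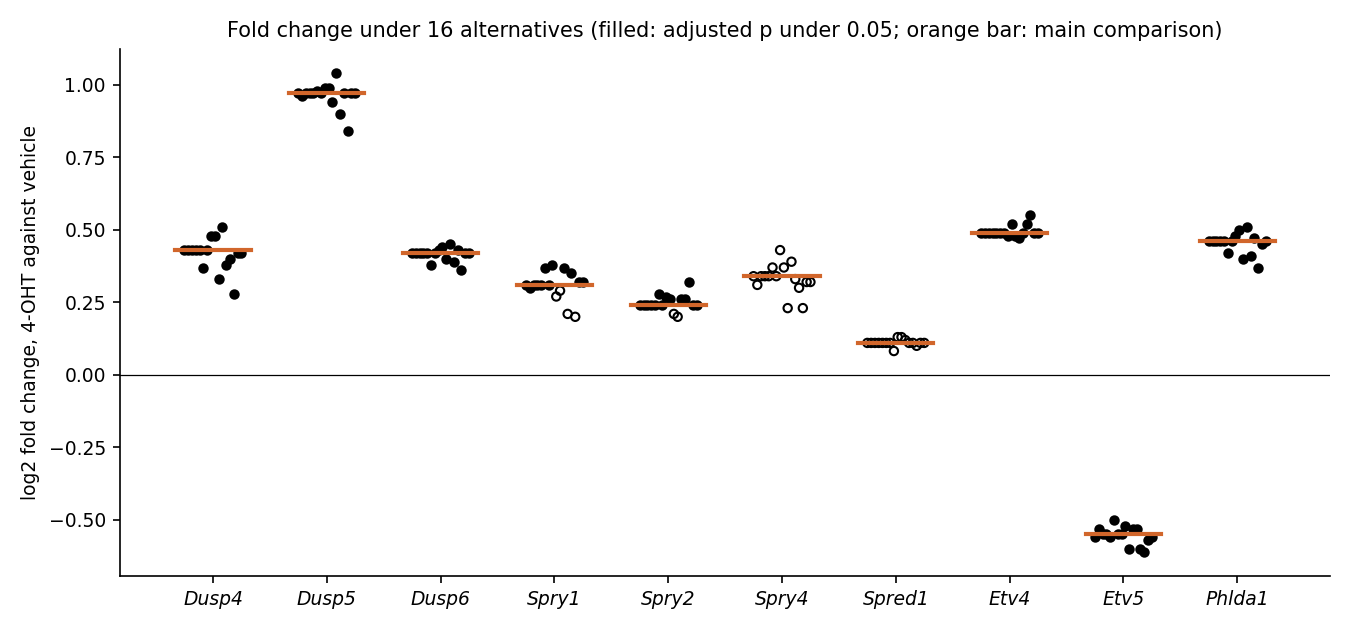
Log2 fold change (y axis, 4-OHT against vehicle) of each gene under the 16 alternatives (points, filled where the adjusted p-value is under 0.05) and in the main comparison (orange bar). Points of Dusp4, Dusp5, Dusp6, Etv4, Etv5 and Phlda1 are filled throughout, Spry1 and Spry2 mix filled and open points, and those of Spry4 and Spred1 are open throughout.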

How the data were processed

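RNA of the 6 organoid libraries had been extracted with Trizol, and library preparation and sequencing were done by a service company, per the labels. The submitters' processing notes name STAR, DESeq2 and the build GRCm39 (mm39), without versions; the counting tool, the annotation and the strand setting are not given in the sources used here. The deposited values are normalized counts, a signal that the authors made by dividing the reads of each gene by 1 size factor per library. It is not corrected for gene length. In each library 100.0% of the values came out as whole reads, to within 0.1 of a read, once multiplied by that factor. The table held 25067 rows, 1754 of them at 0 in each library, and 4 symbols on more than 1 row, which were kept apart.

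Groups came from the sample titles. The main comparison used limma-trend from limma 3.58.1 under R 4.3.3, on log2(normalized count + 1), so fold changes are on that scale, over 13210 rows with a mean of at least 10, with no pairing. Intervals are 95% limma intervals and cover the spread between libraries. Ratios of 2 genes were compared with exact permutation tests (SciPy 1.17.1). Errors are SD or, for fold changes, the standard error (SE) of the fit. The comparison was also run on simulated counts. Few genes were changed in them, each by more than any of the 10 genes changed here. The simulation therefore does not check changes of this size or number. Libraries of a group differed by 3.49 to 6.44 times the variance of counting alone (chi-square per degree of freedom), so none was a copy.

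The comparison was repeated in 16 other ways: with a pseudocount of 0.1 or of 10, without the filter, with a minimum mean of 50, with TMM factors, quantile normalization, the replicate number as a block, each library left out in turn, 4-OHT replicates 2 and 3 left out together, and on the whole reads with edgeR 4.0.16 (quasi-likelihood) and with DESeq2 1.42.0. The members, the pathway lists and the motifs were chosen with earlier results of these data known. Named genes were all 10, Prkcz and Prkci, up to 3 called genes with the largest rise and 3 with the largest fall in each list, others fixed by name (Braf, Map2k1, Map2k2, Mapk3, Ccnd1, Epha2, Epha4 and Dusp1) and the 3 genes most like Dusp6 by each measure. Some genes that this rule names are not reported here. Exon lengths came from GENCODE vM21 (GRCm38), a build other than that of the authors, and no coordinates were carried between builds.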

Additional observations from a re-analysis of the deposited data

How the results depend on the processing

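Dusp4, Dusp5, Dusp6, Etv4, Phlda1 and Etv5 kept their direction and their call under each of the 16 alternatives, and Spry4 and Spred1 did not pass in any. Over all 160 values of the 10 genes, 6 lost the call (Spry1 in 4, Spry2 in 2) and 0 reversed; the cause was not tested. The number of the 10 called higher ranged from 5 to 7 with single libraries removed, and 6 without 4-OHT replicates 2 and 3. That fit rests on 1 library against 3, assumes that the lone library varies like the others, and called 1991 of all tested genes higher, in place of 2997. The pathway genes called lower went from 5 to 3 with no filter on low values, quantile normalization, DESeq2 or without 4-OHT replicates 2 and 3, and ranged from 3 to 5 with single libraries removed. Among values that never passed, Map2k1 lay between -0.05 and 0.049 and Dusp1 between -0.051 and 0.23 with single libraries removed, and Dusp1 was -0.033 without 4-OHT replicates 2 and 3. The log2 ratio differences of Dusp6 to Dusp4 (-0.055 to 0.074) and Spry2 to Spry1 (-0.17 to 0.052) also turned in such fits. With the replicate block, 7 of the 10 genes were called higher and 1 lower, and 2938 and 2699 of all tested genes, so that among the genes named only Ksr1 lost its call. Same-numbered libraries had correlations of -0.020 to 0.030 after group means were removed, and the labels state no shared origin. No pairing by number was thus seen, but so few libraries cannot exclude it. Depth limits Spry4 most, at 63 to 131 reads per library.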
